A study of Mus musculus with 6 samples.

Results

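Beta-defensins are small, mostly cationic peptides whose fold is held by 6 cysteines. They damage bacterial membranes, and in the epididymis, the duct in which sperm mature after leaving the testis, several of them coat the sperm surface. Spag11a and Spag11b encode sperm-associated antigens that carry a beta-defensin motif and lie inside the largest beta-defensin cluster of the mouse. Transcripts of this family are known to differ between regions of the duct, and many of them respond to androgen. The genes described here are all rows of the whole-epididymis count table whose symbol is Defb followed by a number, pseudogenes left out, together with Spag11a and Spag11b. There are 44 of them among 57127 genes listed.

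The libraries came from whole epididymis of adult mice, with 3 wild type (WT) libraries and 3 from mice homozygous for a null allele of Ocln (Ocln-/-, called Ocln-KO). The strain is given as C57BL/6 for both genotypes, and no mouse was treated. Ocln encodes occludin, a tight junction protein, and the deletion is not restricted to a tissue or cell type. The study's methods state that Ocln-KO males came from heterozygous pairings, and they speak both of separate extractions from 3 pairs of mice and of pooled RNA, so that n counts libraries and the mice behind each are not known. One label gives prefrontal cortex as the tissue of extraction, whereas the tissue and source labels give epididymis; Crisp1, a secreted epididymal protein, had between 12477 and 16754 CPM (counts scaled to a common library total) in WT. Tests compare the spread between libraries, part of which may be technical.

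Libraries held between 30646424 and 38870780 counts, so that 3 counts, the level treated here as the limit of detection, equal between 0.0801 and 0.0941 CPM, a limit of counting error only. Ocln fell from 85.4 ± 6.50 CPM (SD, n = 3) in WT to 15.1 ± 0.231 CPM in Ocln-KO (log2 fold change -2.50). Ocln-KO replicate 3 stood apart from the rest: on the first principal component of all tested genes (47.2% of the variance) it lay at 86.3, against 17.7 and 29.1 for the other Ocln-KO libraries and -52.8 to -37.0 for WT. Where a result rests on 1 Ocln-KO library, values without that library are given.

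The 44 genes lie in 5 groups on 4 chromosomes of GRCm38 (neighbours over 1000 kb apart start another group). Chromosome 1 carries Defb18 and Defb41, and chromosome 2 carries 11 genes from Defb23 to Defb25. On chromosome 8, a proximal block of 16 genes runs from Defb40 to Defb7 and includes both Spag11 genes, and a second block of 10 genes runs from Defb33 to Defb13. Chromosome 14 carries 5 genes from Defb48 to Defb42. A coding sequence with a cysteine pattern typical of the family was found for 40 of the 44. The coding regions specify between 57 and 186 residues, with a net charge (lysines and arginines less aspartates and glutamates) from 2 to 16 and a median of 6.

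The coding stretch from the first to the last of the 6 cysteines is printed for 6 genes. They are the 3 that passed the test (Spag11b, Defb15 and Defb48), Spag11a, Defb34 and Defb22. Spag11a is the neighbour of Spag11b on the chromosome, and Defb34 is the gene of the family closest to Defb15 in coding sequence. Defb22 is the gene with the largest negative fold change. Sequences are from GENCODE M21 transcripts, 5′ to 3′, with cysteine codons in capitals.
Spag11b: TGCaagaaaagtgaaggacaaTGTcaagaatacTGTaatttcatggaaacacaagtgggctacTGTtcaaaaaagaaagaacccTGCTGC
Spag11a: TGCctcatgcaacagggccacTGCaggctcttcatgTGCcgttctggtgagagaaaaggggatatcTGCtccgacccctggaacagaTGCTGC
Defb15: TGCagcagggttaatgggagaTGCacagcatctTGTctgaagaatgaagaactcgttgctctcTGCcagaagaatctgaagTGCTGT
Defb34: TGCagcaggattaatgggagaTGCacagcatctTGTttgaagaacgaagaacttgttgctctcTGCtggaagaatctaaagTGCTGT
Defb48: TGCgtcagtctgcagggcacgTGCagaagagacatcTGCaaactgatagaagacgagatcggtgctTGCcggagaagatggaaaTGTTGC
Defb22: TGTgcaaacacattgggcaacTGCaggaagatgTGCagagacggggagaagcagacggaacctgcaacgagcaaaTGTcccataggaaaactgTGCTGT

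In all 6 sequences the last 2 cysteine codons stand next to each other. Defb15 and Defb34 were identical at 90.9% of coding positions, the only pair at or over 90% among the 44 genes by this measure. Reads could be shared between them by the authors' counting. The measure counts a difference in length against a pair. Defb12 and Defb35, of 85 and 63 residues, scored 70.6%, yet their stretches of 87 bases from first to last cysteine are nearly the same. Reads could be shared between that pair too, and Defb35 had at most 4.08 CPM in any library. Spag11a and Spag11b share exonic sequence with a longer annotated transcript unit on the same strand, Gm45826, and an antisense gene, Gm36879, overlaps an exon of Defb15. The counting mode and strand setting are not given in the sources used here, and the values of these 3 genes carry that uncertainty.

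Of the 44 genes, 4 had no count in any library (Defb5, Defb7, Defb8 and Defb46), all of them in the proximal block of chromosome 8. Another 6 had counts but too few to be tested (Defb3, Defb4, Defb6, Defb33, Defb45 and Defb50). The other 34 were tested among 19691 genes. Since a gene could pass this filter through the genotype in which it was high, counts over the 34 describe the genes tested and not the whole family. Spag11b, with 11, 18 and 5 counts in WT, is such a gene: it passed only through the knockouts, and each count over the 34 that includes it carries this limit.

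In WT the family made up 0.818%, 0.808% and 0.734% of all counts in replicates 1, 2 and 3. Levels per kilobase of exon were highest for Defb28, with 3322, 2928 and 2737 CPM per kb, followed by Defb39 with 2722, 2584 and 2113 CPM per kb. Defb22, the mouse counterpart of the primate sperm coat protein DEFB126, came next with 1950, 1826 and 2424 CPM per kb and overlapped Defb39. Defb23 (1419 to 1759 CPM per kb) lay below each library of Defb22 and above each of Spag11a (906 to 1352 CPM per kb), whereas Spag11a overlapped Defb38 (884 to 1226 CPM per kb). At the other end of the tested genes was Spag11b, at 0.0773 to 0.303 CPM per kb. The 10 highest genes by CPM (Defb30, Defb23, Defb28, Defb22, Defb42, Defb39, Spag11a, Defb21, Defb12 and Defb38) supplied 7293 of the 8488 summed CPM in WT replicate 1.

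Between genotypes, the family did not move as one. Spag11b and Defb15 were higher in Ocln-KO and Defb48 was lower at an adjusted p under 0.05 (edgeR's quasi-likelihood test, Benjamini-Hochberg over all genes tested), that is 2 of 34 higher and 1 of 34 lower. Over all tested genes, 3.91% were called higher and 5.04% lower, so the share of the family called lay near the background in both directions. With scaling to total counts alone, the same calls were made in the family, while the numbers of genes called in the whole table went from 770 higher and 992 lower to 1174 higher and 674 lower. DESeq2 called 6 genes of the family higher and 2 lower, with 4.77% and 5.11% of all genes, and edgeR with no count filter called 6 higher and 1 lower, with 2.94% and 3.79% of all genes. Both of these fits covered 40 genes of the family and 32046 genes in all, the base of the shares given. Genes outside the 34 could thus be called, although DESeq2 gave 3 of the 40 no adjusted p. Defb45 was among those called higher in both fits, and Defb6 with DESeq2 only. Fold changes over 2 were estimated for 7 of the 34 genes upward and 8 downward, against 5.36% and 5.08% of all tested genes. Estimated log2 fold changes were above 0 for 15 genes and below 0 for 19, with a median of -0.18 (range -1.93 to 8.56) against 0.0081 for all tested genes. Their median standard error was 0.42, against 0.20 over all tested genes. These 3 calls need all WT libraries: none of them was kept when any WT replicate was left out. Calls over all genes fell in those fits too, to between 4 and 85 higher and between 19 and 145 lower. For the 3 genes, adjusted p from edgeR then ran from 0.0604 to 0.130. Their log2 fold changes stayed between 8.20 and 9.10 for Spag11b, 3.02 and 3.36 for Defb15 and -1.32 and -1.15 for Defb48.

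**Figure D1:**
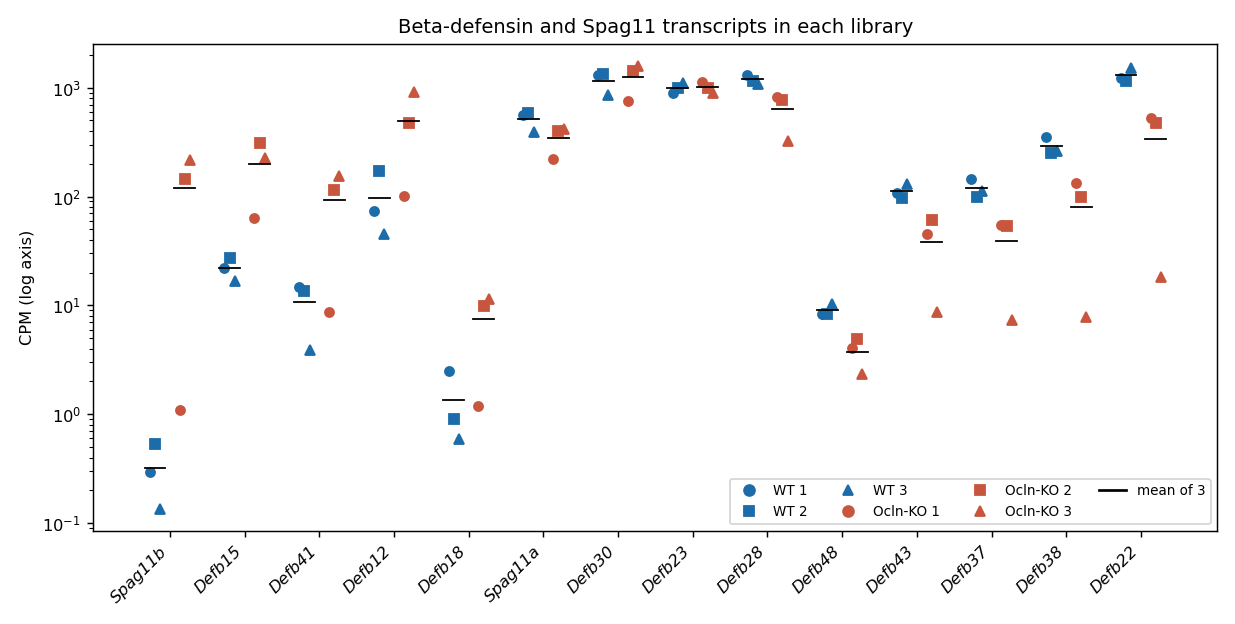
Level of 14 beta-defensin and Spag11 genes in each library, in CPM on a log axis; blue symbols are the 3 WT libraries, red symbols the 3 Ocln-KO libraries, symbol shapes mark replicates 1 to 3 and black bars the mean of 3. Spag11b spans from 0.135 CPM in WT replicate 3 to 214.7 CPM in Ocln-KO replicate 3, whereas both genotypes of Defb23 lie between 886 and 1123 CPM.

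The gene that differed most was Spag11b (ENSMUSG00000059463.7, chr8:19140759-19143010, plus strand), whose product is thought to be processed by the protease furin and to bind sperm. It had 0.294, 0.527 and 0.135 CPM in WT (11, 18 and 5 counts) and 1.09, 143.6 and 214.7 CPM in Ocln-KO (35, 4580 and 7261 counts). Its log2 fold change was 8.56 (SE 1.76, adjusted p = 0.0314 from edgeR). Each Ocln-KO library was above each WT library, but Ocln-KO replicate 1 lay close to WT and far below the other Ocln-KO libraries. Without Ocln-KO replicate 2 the log2 fold change was 8.41 with an adjusted p of 0.0653, and limma-voom gave 6.84 with an adjusted p of 0.566. Its neighbour Spag11a (chr8:19157213-19159920), an abundant gene, had 565 CPM, 589 CPM and 395 CPM in the WT libraries, compared with 223 CPM, 398 CPM and 414 CPM in Ocln-KO, with overlapping genotypes (log2 fold change -0.58, SE 0.25, adjusted p = 0.169). Adjacent on the chromosome, the Spag11 genes thus stood near the top and at the bottom of the tested family in WT levels per kilobase.

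Defb15 (ENSMUSG00000048500.2, chr8:21929813-21932710, minus strand) lies in the second block of chromosome 8, and its rat counterpart has been linked to sperm motility. Its level was 22.2, 27.4 and 16.8 CPM across WT, and 63.6, 310.2 and 228.0 CPM in Ocln-KO. All Ocln-KO libraries were above all WT libraries, with replicate 1 again the lowest of the knockouts (log2 fold change 3.18, SE 0.53, adjusted p = 0.0205). The similar gene Defb34 had at most 1.27 CPM in any library, and its genotypes overlapped.

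Defb41, chosen here after its values were seen, is best known as the gene whose promoter drives a Cre transgene in principal cells of the caput. It had 14.8, 13.5 and 3.90 CPM in WT libraries against 8.63, 113.6 and 155.7 CPM in Ocln-KO. Ocln-KO replicate 1 lay inside the WT range and the other knockouts above it (log2 fold change 3.11, SE 0.93, adjusted p = 0.0746). Its neighbour on chromosome 1, Defb18, also chosen after its values were seen, had 2.51, 0.908 and 0.592 CPM in the WT libraries, compared with 1.18, 9.88 and 11.4 CPM in Ocln-KO, again with the first knockout inside the WT range (log2 fold change 2.48, adjusted p = 0.0974).

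Defb12, in the proximal block of chromosome 8, varied widely within each genotype. It had 73.7, 172 and 45.2 CPM across WT, and 100.8, 474 and 911 CPM in Ocln-KO, the first knockout lying within the WT range (log2 fold change 2.35, SE 0.77, adjusted p = 0.0919). Defb25 on chromosome 2, a low gene whose genotypes did not overlap, had 1.04, 0.586 and 0.780 CPM in WT libraries against 1.25, 2.10 and 3.08 CPM in Ocln-KO (log2 fold change 1.41, adjusted p = 0.0788). A pair of untested genes, chosen after their values were seen, was likewise lowest in replicate 1 and highest in replicate 3 among the knockouts, in raw counts. Defb45 had 2, 4 and 0 counts in WT and 1, 54 and 192 in Ocln-KO, and Defb6 had 1, 0 and 0 counts in WT and 1, 17 and 20 in Ocln-KO.

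Across the family, 5 of 34 genes (14.7%) were over 4 times higher in both Ocln-KO replicates 2 and 3 than in Ocln-KO replicate 1 (Defb18, Defb41, Defb19, Defb12 and Spag11b), against 0.858% of all tested genes. For Defb41, Spag11b and Defb15 both of these libraries were also over 4 times the highest WT library, a pattern seen in 8.82% of the family and 0.244% of all tested genes. When Ocln-KO replicate 1 was left out, edgeR called 7 of the 34 genes higher (Defb12, Defb15, Defb18, Defb25, Defb41, Defb42 and Spag11b), where 3.84% of all genes tested in that fit were called higher and 4.3% lower. No gene of the family was called lower, and 6 were lower at an unadjusted p under 0.05. Defb45 and Defb6 were called higher as well, but they, like Spag11b, passed the count filter only through the knockouts in which they were high. These patterns were looked for after the values were seen.

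Gpx5, a secreted glutathione peroxidase of the caput, was also highest in Ocln-KO replicates 2 and 3, with 54.4, 172 and 26.3 CPM in the WT libraries, compared with 256, 7258 and 10031 CPM in Ocln-KO (log2 fold change 6.12, adjusted p = 0.0359). The initial segment and caput list of 10 genes summed to between 10288 and 14731 CPM across WT, and to 8160, 23267 and 23516 CPM in Ocln-KO; 7 of its genes were tested, and Gpx5 was the only one called. Without Gpx5 the list summed to between 10261 and 14559 CPM for WT, and to 7904, 16009 and 13485 CPM for Ocln-KO. Rnase10, Cst11 and Lcn9 were under 0.6 CPM in all libraries, Cst8 was at most 0.784 CPM and Lcn8 was under 2.3 CPM. None of the 10 genes was at 0 in every library. The part of these markers in the differences of Spag11b, Defb15, Defb41, Defb18 and Defb12 was not tested, and in bulk tissue more cells of a type and more RNA per cell cannot be told apart. The share of each region of the duct in a library is not given in the sources used here, and its part was not tested either.

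**Figure D2:**
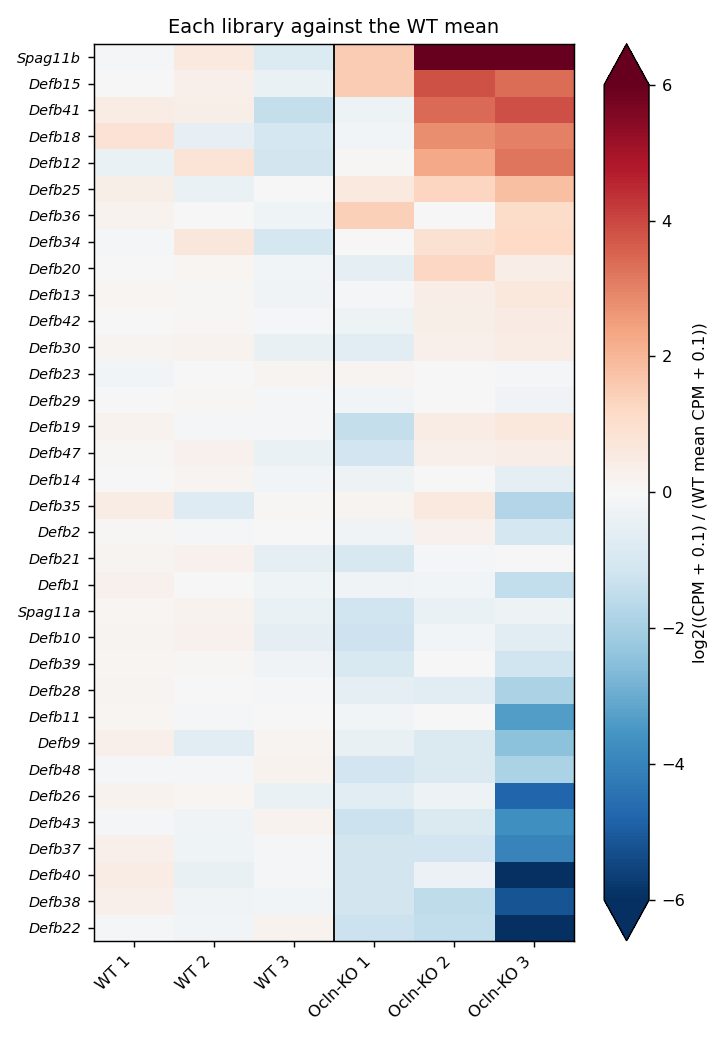
Level of each of the 34 tested genes (rows) in each library (columns) relative to the mean of the 3 WT libraries, as log2((CPM + 0.1) / (WT mean CPM + 0.1)). Rows are ordered by the mean of these values over the 3 Ocln-KO libraries, highest first. Red is higher and blue lower than the WT mean; colours end at 6 in either direction, which Spag11b passes upward in Ocln-KO replicates 2 and 3 (8.42 in replicate 2) and Defb22 and Defb40 pass downward in Ocln-KO replicate 3.

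Among the genes with negative fold changes, Defb48 (ENSMUSG00000075574.2, chr14:62977524-62984510, minus strand) passed the test. It had 8.31, 8.40 and 10.4 CPM in WT libraries against 4.02, 4.86 and 2.37 CPM in Ocln-KO (log2 fold change -1.27, SE 0.28, adjusted p = 0.0354). Every knockout library was below every WT library, and the fold change was -1.02 with an adjusted p of 0.0234 without Ocln-KO replicate 3. Leaving out Ocln-KO replicate 1 gave an adjusted p of 0.0551, and leaving out replicate 2 of that genotype gave 0.0506.

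Defb22 (chr2:152485666-152490138, minus strand) was among the most abundant family members in WT, with 1225, 1146 and 1522 CPM. Its 3 Ocln-KO libraries had 528, 473 and 18.2 CPM, all below WT, with the last far below the other knockouts (log2 fold change -1.93, SE 0.91, adjusted p = 0.202). Without Ocln-KO replicate 3 the log2 fold change was smaller, -1.38, and the adjusted p was 0.00228. Defb22 supplied 14.4%, 13.8% and 20.3% of the family's summed CPM in the WT libraries, compared with 9.77%, 6.10% and 0.279% in Ocln-KO.

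Defb38 and Defb37 are neighbours in the proximal block of chromosome 8, part of a set of genes known for expression in the epididymis. Defb38 had 350.5, 253 and 261 CPM across WT, and 133.5, 98.7 and 7.87 CPM in Ocln-KO (log2 fold change -1.85, adjusted p = 0.160). Defb37 had 146, 98.4 and 113 CPM in WT libraries against 54.7, 54.1 and 7.30 CPM in Ocln-KO (log2 fold change -1.62, adjusted p = 0.127). In both, the knockouts lay below WT without overlap and replicate 3 was the lowest by a wide margin.

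Defb43, beside Defb30 on chromosome 14, had 107, 96.7 and 131 CPM in the WT libraries, compared with 45.7, 60.6 and 8.66 CPM in Ocln-KO (log2 fold change -1.54, adjusted p = 0.120). Defb28, the highest gene per length in WT, had 1319, 1162 and 1086 CPM across WT, and 829, 776 and 321 CPM in Ocln-KO (log2 fold change -0.89, SE 0.32, adjusted p = 0.112). Neither overlapped between genotypes. With Ocln-KO replicate 3 left out, edgeR called 6 genes lower, namely Defb22, Defb28, Defb37, Defb38, Defb43 and Defb48, and the same 2 higher, where 4.63% of all genes tested in that fit were called lower and 3.67% higher.

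In 7 of the 34 genes (20.6%), Ocln-KO replicate 3 was more than 4 times lower than each of the other 5 libraries, against 2.06% of all tested genes. They were Defb22, Defb26, Defb40, Defb37, Defb38, Defb11 and Defb43; Defb26, Defb40 and Defb11 were named for this pattern after it was seen. Defb40 had 137, 74.4 and 92.6 CPM in WT libraries against 47.6, 80.2 and 1.24 CPM in Ocln-KO, with the second knockout inside the WT range and the first below it. Its log2 fold change was -1.24, and -0.67 without Ocln-KO replicate 3. Defb11 had 76.5, 64.4 and 71.5 CPM in the WT libraries, compared with 64.0, 69.8 and 6.89 CPM in Ocln-KO, where the log2 fold change went from -0.59 to -0.08 on leaving out replicate 3, and that of Defb26 went from -1.02 to -0.47. No gene of the family was more than 4 times lower than all other libraries in Ocln-KO replicate 1 or 2.

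Values of the other marker lists are given for the same libraries. The distal list (Crisp1, Cd52, Akr1b7, Hoxd10 and Hoxa11) summed to between 14841 and 19392 CPM across WT, and to 11332, 10892 and 4940 CPM in Ocln-KO. Hoxa11 was at 0 and Hoxd10 under 0.44 CPM, and of the 3 tested genes only Akr1b7 was called, in the opposite direction (log2 fold change 1.67). The sum of 5 spermatid genes was 177 to 227 CPM in WT libraries against 229, 239 and 56.7 CPM in Ocln-KO, again lowest in replicate 3, with none called. The sum of 5 clear cell genes was 177 to 255 CPM in the WT libraries, compared with 51.1 to 98.8 CPM in Ocln-KO, with 4 of 5 called lower. The sum of 5 macrophage genes was 75.7 to 82.7 CPM across WT, and 85.1, 122 and 166 CPM in Ocln-KO, with none called. The remaining lists were basal cells (205 to 210 CPM in WT, 210.0 to 251 in Ocln-KO, 1 of 4 called higher), smooth muscle (999.8 to 1195 CPM and 1389 to 1773, 1 of 3 called higher), lymphocytes (0.834 to 1.82 CPM and 2.01 to 3.73), adipocytes (1.21 to 2.46 CPM and at most 0.997), granulocytes (at most 0.242 CPM) and seminal vesicle (at most 0.345 CPM), the last 4 with none called. The part of any of these lists in the family's values was not tested.

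Genotypes did not overlap in 3 tested genes with higher levels in Ocln-KO (Spag11b, Defb15 and Defb25) and in 6 with lower levels (Defb22, Defb28, Defb37, Defb38, Defb43 and Defb48). Over all tested genes the shares were 16.9% and 19.4%. In 25 genes the genotypes overlapped. The spread within WT was like that of other genes, with the highest library under 2 times the lowest in 82.4% of the family and 84.1% of all tested genes, whereas in Ocln-KO this held for 7 of 34 genes (20.6%) against 76.0% of all tested genes. Those 7 were Defb23, Defb29, Defb21, Spag11a, Defb14, Defb13 and Defb42.

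Several abundant genes had similar means in both genotypes. Defb23 had 886, 985 and 1097 CPM in WT libraries against 1123, 994 and 901 CPM in Ocln-KO (log2 fold change 0.02, SE 0.13, adjusted p = 0.921). Defb30, the highest by CPM, had 1294, 1336 and 859 CPM in the WT libraries, compared with 758, 1413 and 1577 CPM in Ocln-KO, where the knockouts spanned the WT values (log2 fold change 0.10, adjusted p = 0.843). Defb42 had 505, 549 and 490.1 CPM across WT, and 421, 664 and 729 CPM in Ocln-KO (log2 fold change 0.23, adjusted p = 0.467). The small standard error of Defb23 contrasts with that of its chromosome 2 neighbour Defb22, at 0.91.

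Defb21 had 389.8, 410.0 and 241 CPM in WT libraries against 176, 330.4 and 342 CPM in Ocln-KO (log2 fold change -0.30, adjusted p = 0.534). Defb39 had 686, 651 and 533 CPM in the WT libraries, compared with 334, 615 and 276 CPM in Ocln-KO (log2 fold change -0.61, adjusted p = 0.193), with the second knockout inside the WT range. Without Ocln-KO replicate 2, Defb39 passed the test (log2 fold change -1.03, adjusted p = 0.0319), alone with Defb15. Calls were fewer over all genes too in that fit, with 220 higher and 342 lower among 20362. With all libraries, 770 were called higher and 992 lower among 19691.

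Defb1, Defb14 and Defb4 are mouse relatives of the best-studied human beta-defensins. Defb1, counterpart of human beta-defensin 1 and expressed by many epithelia, had 89.3, 72.8 and 63.4 CPM across WT, and 65.7, 66.0 and 27.1 CPM in Ocln-KO (log2 fold change -0.51, SE 0.31, adjusted p = 0.325). Defb14, related to human beta-defensin 3, had 73.3, 80.8 and 65.4 CPM in WT libraries against 59.2, 72.3 and 48.4 CPM in Ocln-KO (log2 fold change -0.29, SE 0.15, adjusted p = 0.257). Defb4, related to the inducible human beta-defensin 2, was near the limit of detection with 11, 11 and 15 counts in WT and 8, 8 and 0 in Ocln-KO, and was not tested.

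The other 11 tested genes (Defb2, Defb9, Defb10, Defb13, Defb19, Defb20, Defb29, Defb34, Defb35, Defb36 and Defb47) lay between 0.188 and 177 CPM in single libraries. Their log2 fold changes ran from -1.07 in Defb9 to 1.007 in Defb36, their genotypes overlapped in every case and no adjusted p was below 0.154. Of the untested genes not yet described, Defb3 had at most 4 counts in a library, Defb33 at most 10 and Defb50 at most 11.

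**Figure D3:**
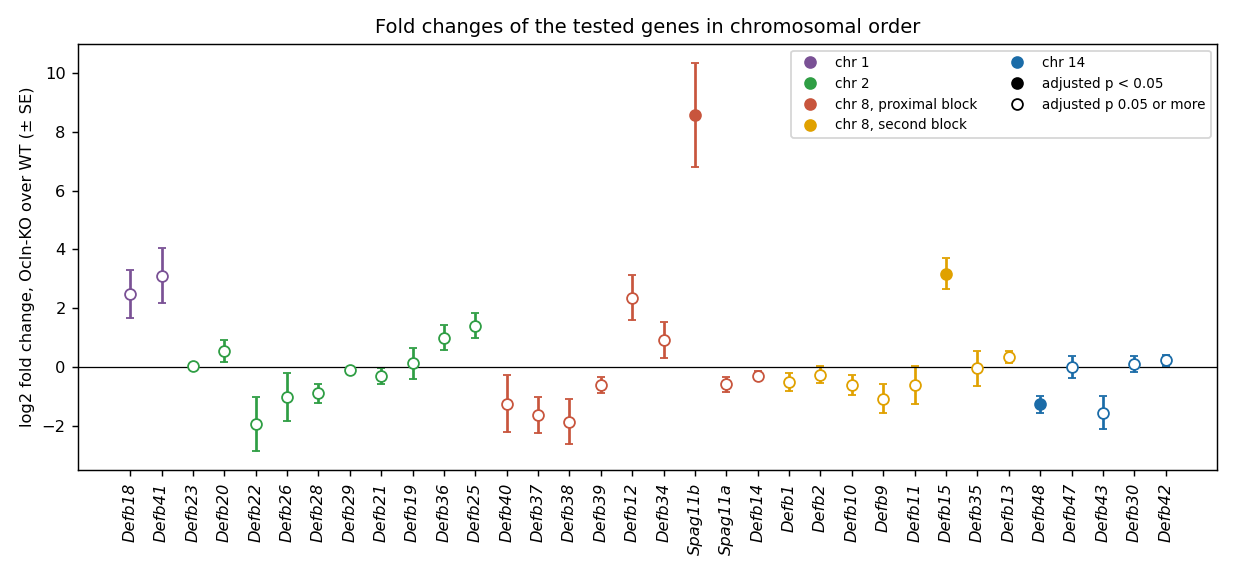
Log2 fold change (Ocln-KO over WT, points, with bars of 1 standard error from edgeR) of the 34 tested genes in chromosomal order, coloured by cluster; filled points have an adjusted p under 0.05. Positive and negative values stand side by side within the chromosome 2 cluster and both chromosome 8 blocks, and the 3 filled points (Spag11b, Defb15 and Defb48) lie in 3 different clusters.

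By position, estimates of both signs occurred within every group except the chromosome 1 pair, where both were positive. In the chromosome 2 cluster 5 tested genes had positive and 5 negative estimates, from -1.93 to 1.41, and its summed level was 4116 to 4279 CPM in the WT libraries, compared with 2947, 2988 and 1802 CPM in Ocln-KO. The proximal block of chromosome 8 held 3 positive and 6 negative estimates. Its sum, 1506 to 2033 CPM in WT, was 955 CPM in the first knockout and 1938 and 1883 CPM in the others.

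The second block of chromosome 8, where a deletion of the genes from Defb1 to Defb13 is known to make male mice sterile, had 2 positive and 6 negative estimates. It summed to 224 to 268 CPM across WT, and to 254, 529 and 307 CPM in Ocln-KO, of which Defb15 supplied 63.6, 310.2 and 228.0 CPM. On chromosome 14 the estimates were positive for 3 genes and negative for 2. That cluster, led by Defb30, summed to 1505 to 2013 CPM in WT libraries against to 1237, 2167 and 2343 CPM in Ocln-KO.

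Summed over the 44 genes, the family had 8488, 8297 and 7518 CPM in the WT libraries, compared with 5402, 7746 and 6502 CPM in Ocln-KO, a ratio of the means of 0.809. Ocln-KO replicate 2 lay inside the WT range, and with 3 libraries against 3 an exact permutation test cannot give a two-sided p below 0.1, so none was run. Defb12, Spag11b, Defb15 and Defb41 together had 111, 213 and 66.1 CPM across WT, and 174, 1041 and 1510 CPM in Ocln-KO, whereas Defb28 went from 15.5%, 14.01% and 14.5% of the family's sum in WT to 15.3%, 10.02% and 4.93% in Ocln-KO. In Ocln-KO replicate 3, Defb12 alone supplied 14.02% of the family's sum, against 0.602% to 2.07% in WT.

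**Figure D4:**
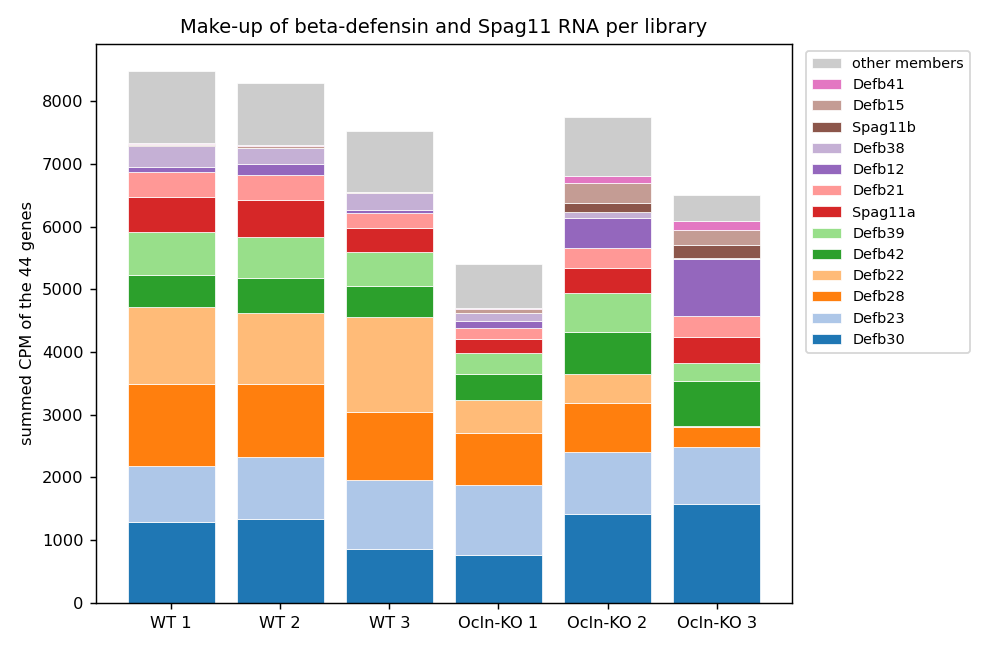
Summed CPM of the 44 genes in each library (stacked bars from 0), split into 13 named genes and all other members in grey. The family's total is lowest in Ocln-KO replicate 1 (5402 CPM), and in Ocln-KO replicate 3 the Defb22 segment is nearly gone (18.2 CPM) while the Defb12 segment reaches 911 CPM.

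Genes around the family in its known pathways were read from a fixed list of 66, made of receptors, inducers, furin, alpha-defensins and other antimicrobial proteins. Of these, 34 had no count and 23 were tested, 5 of them called higher and 4 called lower in the knockouts. Over all tested genes, 3.91% were called higher and 5.04% lower. The median log2 fold change of the 23 was 0.42, against 0.0081 over all tested genes. Among receptors, Tlr1 (1.66, SE 0.27), a Toll-like receptor, Ccr2 (1.26, SE 0.26), a chemokine receptor reported to bind beta-defensins, and the melanocortin receptor Mc5r (1.11, SE 0.26) were higher, as log2 fold changes. Mc4r, another melanocortin receptor, was lower (-2.55, SE 0.49) at a low level of 0.988, 1.14 and 1.72 CPM in WT libraries against 0.249, 0.282 and 0.118 CPM in Ocln-KO.

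Of the inducers, the tumour necrosis factor receptor Tnfrsf1a was higher by 0.42 (SE 0.10). Furin had 249, 243 and 272 CPM across WT, and 198, 189 and 199 CPM in Ocln-KO, a small fall in all knockouts (log2 fold change -0.38, SE 0.08, adjusted p = 0.0370). Of other antimicrobial proteins, Lcn2, which binds bacterial siderophores, was higher by 1.02 (SE 0.22), the iron-binding lactoferrin Ltf was lower (-1.27, SE 0.28) and Bpi, a protein that binds bacterial endotoxin, was lower (-1.65, SE 0.38).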

How the data were processed

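RNA of whole epididymis from 3 WT and 3 Ocln-KO libraries was depleted of rRNA and sequenced as directional paired-end libraries. The authors aligned reads to GRCm38 (HISAT2 2.0.4 in the submitters' processing notes) and deposited raw HTSeq gene counts that were not normalized; the counting mode, strand setting and treatment of multiply aligned reads are not given in the sources used here. All 6 columns were matched to samples by name.

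Here counts were fitted in R 4.3.3 with edgeR 4.0.16 (TMM, filterByExpr, glmQLFit, glmQLFTest; genotype as the only term) over the whole table, with p-values adjusted by Benjamini-Hochberg over every tested gene, and a call is an adjusted p under 0.05. CPM use TMM effective sizes. The standard error is the log2 fold change over the square root of F. Counts were simulated for 19691 genes, with 200 drawn at random changed 4-fold. edgeR tested 19311 of them, recovered 78.5% of the 200 and called 17 unchanged genes. That share holds for genes drawn from the whole table and was not measured for this family, whose standard errors were larger. Alternatives were DESeq2 1.42.0, limma-voom 3.58.1, scaling by RLE or by total counts, TMM factors that left out the members and the 20 most abundant genes, a replicate block, no filter, a minimum of 10 counts per library, and each library left out in turn.

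Gene positions come from RefSeq (GRCm38.p6) and exon lengths and coding sequences from GENCODE M21, which may not be the authors' annotation. The transcript holding a six-cysteine pattern was preferred, and residues and charge were computed from its coding sequence. Identity counts aligned coding bases over the longer of the paired sequences, so that a difference in length lowers it. The members and lists were chosen with earlier results of these data known. Genes named in full are those with an adjusted p under 0.05, the 10 highest in mean CPM, Spag11a, Spag11b, Defb1, Defb4, Defb14 and Defb22, and up to 5 others without overlap of the genotypes. One gene of the pathway list is not reported here.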

Additional observations from a re-analysis of the deposited data

How the results depend on the processing

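The family's calls depended on the test, the filter and single libraries. Against 2 genes higher and 1 lower with edgeR, DESeq2 called 6 higher and 2 lower (4.77% and 5.11% of all genes). No count filter gave 6 higher and 1 lower (2.94% and 3.79% of all genes). Both of these settings fitted 40 genes of the family, of which DESeq2 gave 3 no adjusted p. limma-voom called 1 higher and 1 lower, with 729 higher and 1050 lower among all 19691 genes. At least 10 counts in every library also gave 1 higher and 1 lower, with 805 higher and 990 lower among 17256 genes. Spag11b could not be fitted under that filter, which its 5 counts in WT replicate 3 do not pass. Defb45 was called without a count filter (adjusted p = 0.0210), and Defb6 was not (adjusted p = 0.0544). With single libraries left out, the number called higher ran from 0 to 9 and the number called lower from 0 to 6, the median log2 fold change from -0.43 (without Ocln-KO replicate 2) to -0.11 and the ratio of summed CPM from 0.736 to 0.883. With any WT replicate left out, edgeR made 0 calls in the family, with 6 or 7 genes higher and 1 to 5 lower at an unadjusted p under 0.05, and the calls over all genes fell to between 4 and 85 higher and 19 and 145 lower. Over all alternatives, the adjusted p of Defb15 ran from 4.21e-05 to 0.0999 (under 0.05 in 10 of 14), that of Spag11b from 1.86e-06 to 0.566 (7 of 13) and that of Defb48 from 0.000286 to 0.128 (8 of 14), each in 1 direction throughout.

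With the replicate number as a block, edgeR made 0 calls in either direction in the family (4 higher and 8 lower at an unadjusted p under 0.05). Few genes were called in that fit at all, with 10 higher and 31 lower among 19691. The numbers were not taken to pair the libraries, since the deviations of same-numbered libraries from their genotype means correlated at -0.0525, -0.0315 and -0.00256 across genes, and no library correlated best with its own number.

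Estimates near 0 changed sign without a call. That of Defb19 was -0.15 with limma-voom, -0.0714 with the block and between -0.22 and 0.57 with single libraries left out, and that of Defb2 then lay between -0.58 and 0.0289. With single libraries left out, Defb23 ranged from -0.057 to 0.11 and Defb30 from -0.10 to 0.37. Defb35 was at 0.0451 with total counts only and between -0.53 and 0.41 with single libraries left out. Defb47 was at -0.12 with limma-voom, -0.11 with the block and between -0.23 and 0.37 with single libraries left out. The cause was not tested for any of these changes. The counts limit what can be said of the 10 untested genes, since 3 counts equal up to 0.0941 CPM.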

Other observations

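The pseudogene Defb44-ps, which the choice of genes left out, had 10.6, 11.8 and 6.83 CPM in WT libraries against 6.79, 8.44 and 2.37 CPM in Ocln-KO, with overlapping genotypes (log2 fold change -0.73, SE 0.43, adjusted p = 0.299). Over the 34 tested genes of the family, Ocln-KO replicate 3 was the lowest of the 6 libraries in 16 and the highest in 11, so that 7 genes had neither extreme in this library; over all tested genes it was the lowest in 24.0% and the highest in 22.8%. Ocln-KO replicate 2 was the lowest of the 6 in 0 of the 34 and the highest in 4.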
